A study of Drosophila melanogaster with 9 samples.

Results

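In Drosophila melanogaster many genes carry a CG number, a computed-gene number given when the genome was annotated, in place of a symbol drawn from a phenotype or product. The genes described here were those whose symbol in the array's annotation was a CG number, a few of which have a name elsewhere, with a higher signal in both of 2 populations of sorted muscle cells than in a broader reference population. They were chosen by a margin. The lowest log2 value of a gene over 6 muscle-reporter arrays had to exceed the highest value over 3 reference arrays by 0.5 or more, and where a gene had several probe sets, the one with the highest mean over 9 arrays stood for it. Of 10563 genes with a probe set of their own, 4578 carried a CG number, and 108 of those met the margin, which was 2.36% of the CG genes. The same margin was met by 206 of 5985 genes with other symbols, or 3.44%. CG genes were dimmer, with a median level of 4.43 on the muscle-reporter arrays against 5.64 for all genes. The part of signal level in these shares was not tested. Turned the other way, with every muscle-reporter array below every reference array by 0.5 or more, the margin was met by 390 CG genes, or 8.52%.

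The cells came from stage 13 embryos laid over 2 h and aged for 8 h at 25 °C, and were sorted by fluorescence. In apGFP cells a muscle enhancer of the apterous gene drove GFP, and in S59RFP cells a muscle enhancer of slouch (also called S59) drove RFP. In the reference, twi-actin-GFP, the promoter of twist drove GFP fused to actin. Each group had 3 arrays from 3 independent sorts, so the spread between arrays covers sorting, labelling and hybridization. On resorting, 74% of the apGFP cells, 87% of the S59RFP cells and 95% of the twi-actin-GFP cells carried their reporter. Sorted cells were pools from many embryos, and the muscle enhancers label a few muscles and their precursors rather than the whole muscle field.

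The body wall muscles of the fly embryo form by fusion. A founder myoblast sets the identity of one muscle through transcription factors such as apterous and slouch, and fusion-competent myoblasts, which depend on lame duck (lmd) and display the adhesion receptor sticks and stones (sns), fuse with it. twist (twi) is the mesodermal factor that starts the programme, and its activity is not restricted to body wall muscle lineages.

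The values were log2 signals, on which a difference of 1 is a 2-fold change. The lowest value was 2.28 and the highest 14.64, and the medians of the arrays lay between 4.47 and 4.61. On 2 of the 6 muscle-reporter arrays, apGFP replicate 3 and S59RFP replicate 2, the values departed from the other 4 in the same way. Across probe sets, the deviations of these arrays from their own group means had r = 0.67, although the arrays belong to different groups. The labels give no batch that would join them. The size of the gene set, the calls between the muscle groups and the marker counts summed over lists are given with and without them, here or with the processing alternatives.

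Marker genes were read against the background of the whole array. In the linear model fitted with limma over all 16377 probe sets, with an adjusted p below 0.05 as the call, 1601 probe sets (9.78%) were higher and 1992 (12.2%) lower in apGFP than in twi-actin-GFP. In S59RFP, 1826 (11.1%) were higher and 2120 (12.9%) lower. The 6 measured genes of fusion-competent myoblasts were higher in both muscle groups, and so were 8 of 14 measured genes of somatic mesoderm and muscle, with 0 lower. Without both departing arrays, 13 genes of these lists together were still higher in each comparison, the number with all arrays, and 2 were lower in each. Their summed picture by array was a mean list level of 11.19 to 11.76 in apGFP and 10.78 to 11.62 in S59RFP against 8.20 to 9.13 in twi-actin-GFP for the fusion-competent genes. For somatic mesoderm and muscle the mean levels were 10.08 to 10.31, 10.16 to 10.29 and 9.26 to 9.43 in the same order. In bulk RNA, fewer cells of a type and less RNA per cell cannot be told apart.

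Markers of several other tissues were higher in the reference. All 6 gut genes and all 4 tracheal genes were lower in both muscle groups, as were 5 of 8 blood cell genes, 3 of 5 fat body genes, 3 of 5 epidermal genes and 6 of 7 heart genes. The exceptions that were higher were Hml among the blood cell genes and mid among the heart genes. Hml was dim, at 4.60 to 4.83 in the muscle groups against 4.10 to 4.21. Of 6 glial genes, 5 were lower in apGFP and 4 in S59RFP, and of 4 visceral mesoderm genes, 3 and 2. Of 3 germ cell genes, vas was higher and ovo lower in both, and bam was higher in apGFP. The signal of vas was dim as well, at 4.49 to 4.90 against 3.75 to 4.18. The mean level of the blood cell list was 8.50 to 8.93 in twi-actin-GFP against 6.00 to 6.48 in apGFP and 6.12 to 6.24 in S59RFP. Neuronal genes went the other way. Their mean level was 7.24 to 7.33 in apGFP and 7.26 to 7.38 in S59RFP against 6.69 to 6.79 in twi-actin-GFP, and 3 of 5 were higher in both muscle groups. These were elav, CadN and para, an RNA-binding protein, a cadherin and a sodium channel. The signal of para was also dim, at 4.33 to 4.70 in the muscle groups against 3.82 to 3.91. Over all these other lists together, 7 genes were higher in apGFP and 6 in S59RFP, and 4 and 3 with a filter on low values. Without both departing arrays 7 were higher in each comparison. Lower were 34 in apGFP with or without them, and in S59RFP 32 with them and 36 without. The synaptic genes nSyb and brp were not called, and stayed between 5.30 and 6.18 and between 4.84 and 5.49 on the 9 arrays. The part of these other cells in the signals of the CG genes was not tested.

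The genes whose enhancers drive the reporters were not called between the muscle groups. apterous (ap) had signals of 8.70, 8.45 and 9.76 in apGFP and of 8.51, 9.16 and 8.53 in S59RFP, against 7.18, 7.04 and 7.01 in twi-actin-GFP. slouch (slou) had 10.77, 10.44 and 10.40 in apGFP, 10.73, 9.97 and 10.77 in S59RFP, and 7.39, 8.20 and 8.33 in twi-actin-GFP. The difference of apGFP from S59RFP was 0.24 for ap (95% interval -0.49 to 0.97) and 0.05 for slou (-0.61 to 0.71). twi itself was lowest in the cells sorted by its own promoter, at 7.19, 6.99 and 7.03 against 8.95 to 9.85 on the other arrays.

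Because the margin was taken from the comparison of both muscle groups with twi-actin-GFP, the sizes of that difference are a description of the 108 genes and carry no test. Their median difference was 1.35 for apGFP and 1.29 for S59RFP, where the medians of all CG genes were 0.095 and 0.112. In linear terms these medians were 2.55-fold and 2.44-fold. Single genes ran from 0.68 to 4.38 in apGFP and from 0.64 to 4.13 in S59RFP. The margin between the closest arrays was at least 1 for 33 genes and at least 2 for 2 genes.

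The widest margin, 2.80, belonged to CG7607. Its signals were 9.95, 9.87 and 9.55 in apGFP, 9.97, 8.62 and 10.02 in S59RFP, and 5.82, 5.10 and 5.31 in twi-actin-GFP. The mean difference was 4.38 ± 0.36 (SE, n = 3 arrays a group) for apGFP, or 20.8-fold, and 4.13 ± 0.36 for S59RFP, or 17.5-fold. One array, S59RFP replicate 2, lay below the other 5 muscle-reporter arrays and still far above the reference. Among the probe sets that stood for the 10563 genes, it was furthest above the reference in both comparisons.

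CG13833 came next, with a margin of 2.12. It had 9.24, 9.04 and 9.01 in apGFP, 9.25, 8.71 and 9.37 in S59RFP, and 6.60, 5.93 and 5.84 in twi-actin-GFP, a mean difference of 2.98 ± 0.23 (SE) for apGFP, or 7.88-fold. The muscle-reporter arrays ran from 8.71 to 9.37 and the reference arrays from 5.84 to 6.60, with twi-actin-GFP replicate 1 higher than the other 2. CG32037 had a margin of 1.92, with 7.52, 7.86 and 8.65 in apGFP, 7.53, 7.67 and 7.47 in S59RFP and 5.53, 5.44 and 5.55 in twi-actin-GFP. Here apGFP replicate 3 was highest and the reference arrays were nearly level.

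CG9674, CG4511 and CG17734 combined a wide margin with little spread. CG9674 had signals of 11.61, 11.56 and 11.46 in apGFP, 11.53, 11.37 and 11.45 in S59RFP and 9.58, 9.27 and 9.35 in twi-actin-GFP, a difference of 2.15 ± 0.10 (SE) for apGFP. CG4511 had 10.56, 10.76 and 10.69, then 10.60, 10.50 and 10.58, then 8.87, 8.64 and 8.71 in the same order of groups. CG17734 had 9.93, 9.85 and 10.07 in apGFP, 9.92, 9.93 and 9.98 in S59RFP and 8.10, 8.29 and 8.20 in twi-actin-GFP, with 1.75 ± 0.09 (SE) for apGFP. On these probe sets the 6 muscle-reporter arrays lay within 0.26 of each other, and neither departing array stood apart. A second, dimmer probe set of CG17734 differed. It had 5.77, 5.94 and 5.78, then 5.93, 5.42 and 6.23, then 4.91, 5.31 and 5.29, a margin of 0.114, and was lowest of the 6 on S59RFP replicate 2. CG9961 was similar at a dimmer signal, with 6.66, 6.40 and 6.47 in apGFP, 6.53, 6.23 and 6.53 in S59RFP and 4.52, 4.33 and 4.63 in twi-actin-GFP. CG5535 varied more, with 9.75, 9.23 and 9.12, then 9.50, 9.43 and 9.57, then 7.19, 7.16 and 7.30.

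CG31038 was measured by 2 probe sets that each met the margin on the same arrays. The brighter had 11.93, 11.81 and 11.16 in apGFP, 11.70, 11.44 and 11.76 in S59RFP and 9.38, 8.93 and 8.99 in twi-actin-GFP. The other had 7.59, 7.79 and 8.23, then 8.72, 6.80 and 8.76, then 3.90, 3.46 and 3.56. The choice of the gene put every muscle-reporter array above the reference for the brighter. The second, not used in the choice, did so by a margin of 2.90 that exceeded the margin of CG7607. CG34417 was the other gene with a second probe set past the margin, at 8.98, 9.07 and 9.31, then 9.06, 8.95 and 9.16, then 7.56, 7.87 and 8.07. In all, 11 of the 108 genes had more than 1 probe set. Of their 13 other probe sets, 2 met the margin, 5 had a margin above 0, and 5 lay below the array median on all 9 arrays.

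The remaining genes among the 15 widest margins were CG44838, CG42458, CG32436, CG15128, CG14490 and CG12672. CG44838 had 11.07, 10.80 and 11.03 in apGFP, 10.95, 10.74 and 11.00 in S59RFP and 9.17, 8.65 and 8.70 in twi-actin-GFP. CG42458 had 7.73, 7.48 and 7.12, then 7.73, 7.0 and 7.48, then 4.83, 5.46 and 5.20. Another of its probe sets missed the margin, with 4.09 on S59RFP replicate 2 among reference arrays of 3.86 to 4.29. CG32436 had 7.63, 7.49 and 8.15, then 7.80, 7.22 and 7.93, then 5.83, 5.42 and 5.45. In these 3 the apGFP and S59RFP arrays overlapped, while CG15128, CG14490 and CG12672 varied widely within the muscle groups and are taken up below.

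**Figure D1:**
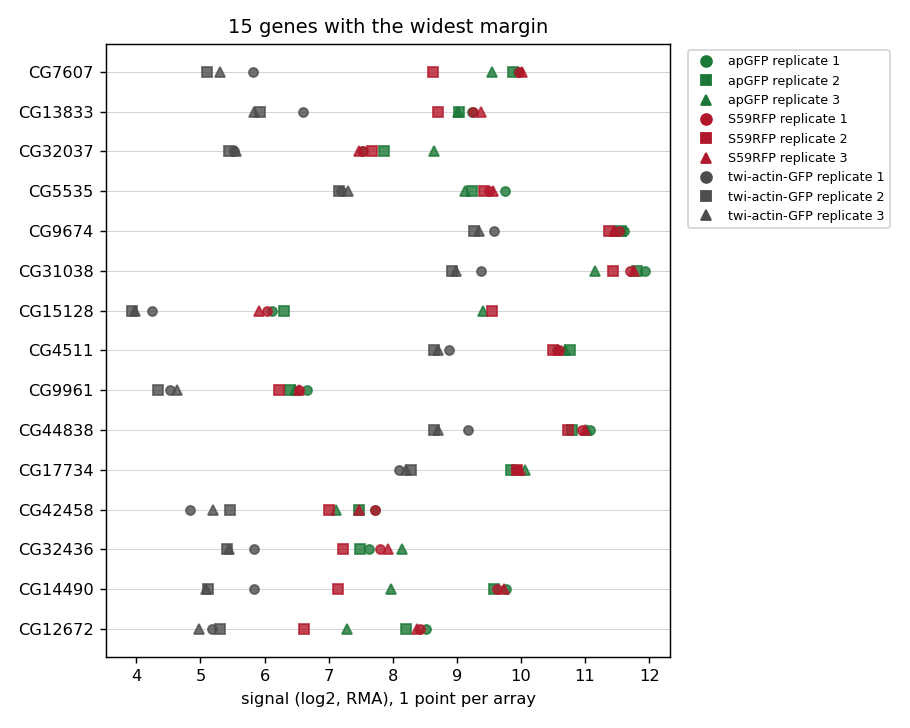
Log2 signal of the genes with the widest margins on each of the 9 arrays, grouped as apGFP, S59RFP and twi-actin-GFP, with 1 point per array, the colour giving the group and the shape the replicate. In CG7607 the muscle-reporter arrays lie between 8.62 and 10.02 and the reference arrays between 5.10 and 5.82.

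The genes covered most of the signal range. Mean signals over the 6 muscle-reporter arrays ran from 4.73 to 14.03. Their median was 8.79, against 4.43 for all CG genes and 5.64 for all genes. The margin was read on these same arrays, so the higher median is partly fixed by the choice of the genes. Signals of different probe sets depend on their probes, so they place a gene on the array's scale and do not rank transcripts. At the top, CG5080 had 14.03, 14.15 and 14.02 in apGFP, 14.12, 13.76 and 14.11 in S59RFP and 13.24, 13.12 and 13.03 in twi-actin-GFP. It was therefore bright in every population, with a mean difference below the median of the 108 genes.

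CG32486, CG14687, CG32813 and CG5177 followed. CG14687 had 13.06, 13.00 and 12.60 in apGFP, 12.97, 12.45 and 12.97 in S59RFP and 11.39, 10.82 and 10.95 in twi-actin-GFP. CG32813 had 12.72, 12.73 and 12.56, then 12.70, 12.16 and 12.61, then 11.15, 11.05 and 11.12. Both were lowest of the 6 on S59RFP replicate 2. CG32486 had 12.90 to 13.17 on the muscle-reporter arrays and 11.77 to 12.10 on the reference arrays. CG5177 had 11.92, 11.82 and 12.06, then 11.75, 12.50 and 11.75, then 11.00, 11.12 and 10.95, so that the same S59RFP array was its highest.

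At the bottom of the range, 6 genes lay below the array median on all 3 twi-actin-GFP arrays, namely CG10801, CG14180, CG15128, CG16898, CG3868 and CG4218. CG16898 had 4.67, 5.10 and 4.52 in apGFP, 4.88, 5.38 and 5.19 in S59RFP and 3.35, 3.55 and 3.24 in twi-actin-GFP. CG4218 had 4.70, 4.75 and 4.49, then 5.02, 4.65 and 4.77, then 3.77, 3.80 and 3.84. Values this low are compressed by the background of the array, and no detection call accompanied them. CG4218 was also the single gene that lay below the array median on a muscle-reporter array.

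The margin of 0.5 cut through a continuous range. The last genes inside it were CG3868, CG11474 and CG17032, with margins of 0.510, 0.502 and 0.50, and the first outside were CG6465, CG10353 and CG14785, with 0.498, 0.497 and 0.485. CG6465, left out, had 10.06, 9.98 and 9.76 in apGFP, 9.73, 9.30 and 9.62 in S59RFP and 8.40, 8.55 and 8.81 in twi-actin-GFP. CG17032, kept, had 11.56, 11.45 and 10.79, then 11.40, 10.71 and 11.44, then 10.21, 10.08 and 10.03. The line thus separated genes with nearly equal margins.

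**Figure D2:**
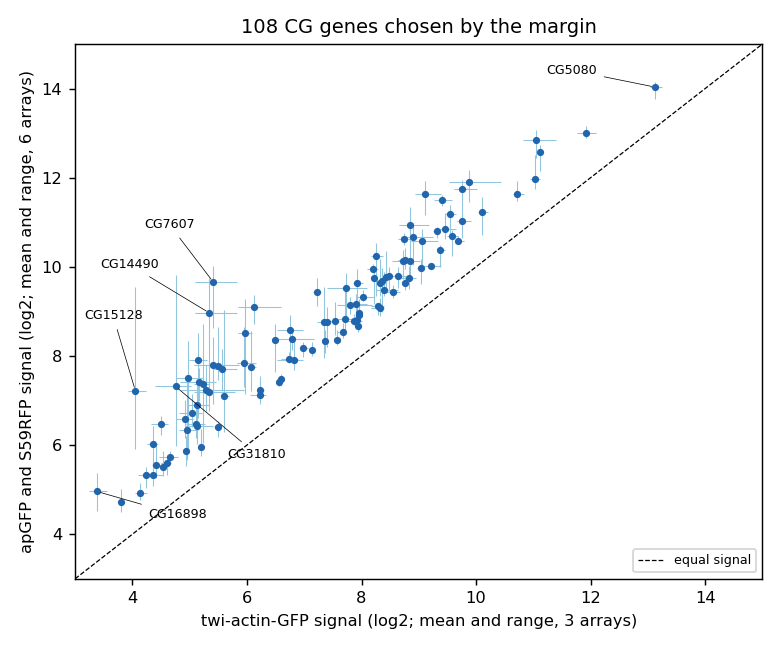
Mean log2 signal of the 108 genes on the 6 apGFP and S59RFP arrays (vertical axis) against the mean on the 3 twi-actin-GFP arrays (horizontal axis), 1 point per gene, with bars for the range over arrays and a dashed line for equal signal. Every point lies above the line because the margin chose it, and the vertical bars of CG15128 and CG31810 are among the longest.

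The comparison of apGFP with S59RFP was not used to choose the genes and could be tested. It asks whether a CG gene differed between cells marked by the 2 muscle enhancers. Of the 108 genes, 0 were called in limma's fit, and 0 of all 16377 probe sets were called either, which is a background of 0%. At an unadjusted p below 0.05 there were 4 of the 108 genes, or 3.70%, against 430 probe sets, or 2.63%. That share is close to the background.

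The 4 genes were CG14180, CG4080, CG30156 and CG12316. CG14180 had 6.40, 6.13 and 6.42 in apGFP, 5.75, 5.49 and 5.95 in S59RFP and 4.26, 4.44 and 4.39 in twi-actin-GFP. Its 3 apGFP arrays all lay above its 3 S59RFP arrays, by 0.58 in the mean (95% interval 0.27 to 0.89, adjusted p = 0.994 in limma). CG4080 had 10.30, 10.16 and 10.43 in apGFP and 9.95 to 10.04 in S59RFP, a difference of 0.30 (0.08 to 0.53). Again the groups did not overlap.

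CG30156 and CG12316 lay higher in S59RFP. CG30156 had 5.45, 5.31 and 5.36 in apGFP and 5.50, 5.61 and 5.86 in S59RFP, a difference of -0.28 (-0.53 to -0.03). CG12316 had 8.27, 8.26 and 8.24 against 8.42, 8.58 and 8.44, a difference of -0.23 (-0.40 to -0.05). Neither pair of groups overlapped, and both adjusted p-values were 0.994 in limma. All 4 differences were smaller than the distance of either muscle group from the reference, which the margin holds at 0.5 or more. For all but CG14180 the choice of the genes fixed this in advance.

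Over the 108 genes the difference between the muscle groups had a median of 0.045, with 69 above 0 and a range of -0.39 to 0.58. For all CG genes the median was -0.004, with 2249 of 4578 above 0, and 5778 of all 10563 genes lay above 0. A difference of more than 0.3 either way was seen in 10 of the 108 genes, in 385 of the 4578 CG genes and in 914 of all 10563 genes. After CG14180, the largest differences towards apGFP were 0.45 in CG32037 (95% interval -0.10 to 1.01), 0.37 in CG9641 (-0.23 to 0.96), 0.31 in CG11158 (-0.06 to 0.68) and 0.31 in CG4570 (-0.49 to 1.10). Towards S59RFP they were -0.39 in CG16898 (-0.80 to 0.02), -0.39 in CG31710 (-1.29 to 0.52), -0.36 in CG42717 (-1.80 to 1.08), -0.32 in CG1909 (-1.04 to 0.41) and -0.30 in CG4461 (-1.93 to 1.34). Each of these 9 intervals holds 0.

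The intervals also show what the arrays could not settle. The median gene had an interval of 0.369 to each side. In 92 of the 108 genes the interval stayed within 1 on either side of 0, so a 2-fold difference between the muscle groups lay outside it. In the other 16 genes it reached beyond 1, and the widest extended 2.58 to each side. For those genes a 2-fold difference in at least 1 direction lay within the interval.

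**Figure D3:**
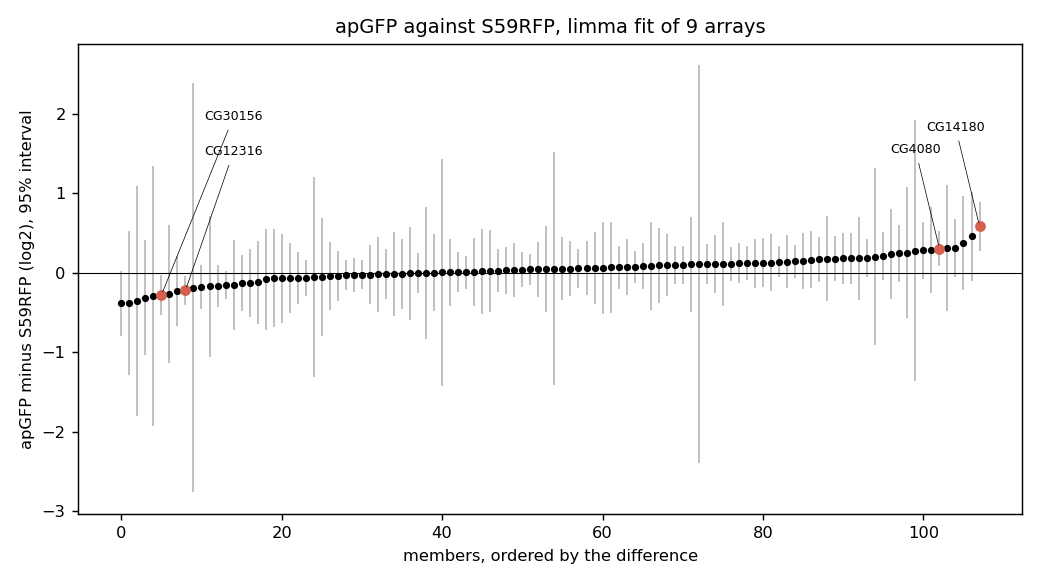
Difference in log2 signal between apGFP and S59RFP for each of the 108 genes, ordered by size, with 95% intervals from the fit of 9 arrays. The 4 larger red points had an unadjusted p below 0.05, all differences lie between -0.39 and 0.58, and the widest bar extends 2.58 to each side.

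The spread within the muscle groups was larger than in the reference for many of the genes. The median SD over genes was 0.121 in twi-actin-GFP, 0.196 in apGFP and 0.252 in S59RFP. Over the 6 muscle-reporter arrays the median range was 0.628. It was under 0.5 in 38 genes and above 1 in 21 genes, and in 33 genes the range exceeded the margin that chose them.

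Much of that spread lay on apGFP replicate 3 and S59RFP replicate 2. On both of these arrays 26 of the 108 genes (24.1%) were higher than on any of the other 4, and 40 (37%) were lower than on any of them. Among all CG genes the shares were 18.3% and 18.2%. S59RFP replicate 2 gave the lowest of the 6 values in 55 genes (50.9%), where it did so in 28.2% of CG genes and 34.7% of all genes. A lowest value sets the margin, so this share is partly fixed by which genes were chosen, and it was not tested.

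The genes highest on the 2 departing arrays were CG31810, CG15128 and CG4461. CG31810 had 5.99, 6.25 and 9.43 in apGFP, 6.22, 9.82 and 6.19 in S59RFP and 4.40, 4.84 and 5.02 in twi-actin-GFP. CG15128 had 6.11, 6.30 and 9.40, then 6.04, 9.55 and 5.91, then 4.24, 3.93 and 3.98. In both, the 2 arrays stood over 3 log2 units above the other 4, which lay above the reference as the margin requires. Their group means therefore describe none of the single arrays, and the difference of 3.22 for CG15128 in apGFP had an SE of 1.10. A second probe set for CG31810, shared with CG31809, had 9.16, 9.18 and 9.76, then 9.19, 9.63 and 9.26, then 8.11, 8.75 and 8.65. It was highest on the same 2 arrays, by far less.

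CG4461, which RefSeq also lists as Hsp20, had 6.52, 6.31 and 8.03 in apGFP, 6.41, 9.03 and 6.30 in S59RFP and 5.59, 5.68 and 5.55 in twi-actin-GFP. The small heat shock protein gene Hsp26, near it on chromosome arm 3L, had 12.56, 12.26 and 13.41, then 12.73, 13.76 and 12.72, then 13.36, 13.55 and 13.80. Both were highest on the same 2 muscle-reporter arrays. The reference lay below all 6 muscle-reporter arrays for CG4461, as its choice required, and among or above them for Hsp26.

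Genes lowest on the 2 departing arrays were CG14490, CG3726 and CG32181. CG14490 had 9.76, 9.58 and 7.97 in apGFP, 9.62, 7.14 and 9.73 in S59RFP and 5.83, 5.11 and 5.09 in twi-actin-GFP. CG3726 had 9.27, 9.10 and 7.15, then 9.05, 7.31 and 9.15, then 5.98, 5.84 and 6.08. CG32181 had 8.17, 7.71 and 6.71, then 8.25, 5.85 and 8.34, then 5.23, 4.77 and 4.90. In these genes the 2 arrays lay between the other 4 and the reference, as the margin requires of any chosen gene that is lowest on them. CG12672 followed the same order, with 8.52, 8.21 and 7.28, then 8.42, 6.61 and 8.38, then 5.18, 5.30 and 4.98.

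Some marker lists moved on the same arrays. The fusion-competent myoblast genes were lower there. Their mean level was 11.19 on apGFP replicate 3 and 10.78 on S59RFP replicate 2, against 11.57 to 11.76 on the other 4. The somatic mesoderm and muscle list was not, at 10.31 and 10.29 against 10.08 to 10.27. The tracheal list was higher, at 7.32 and 7.78 against 6.63 to 7.02, and so was the gut list, at 6.76 and 7.01 against 6.19 to 6.66. Single genes of these lists differed. Gasp had 8.70 and 9.16 against 6.71 to 7.73, while verm, serp and pio lay among the other 4 on apGFP replicate 3. In the gut list mex1 had 7.70 and 8.57 against 5.91 to 6.49, while grn was lower, at 5.81 and 5.54 against 6.13 to 6.64. The part of these shifts in the CG genes was not tested. Without apGFP replicate 3 the margin was met by 120 CG genes, without S59RFP replicate 2 by 167, and without both by 251. Leaving out arrays can only widen a gene's margin, so each of these sets holds the 108.

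**Figure D4:**
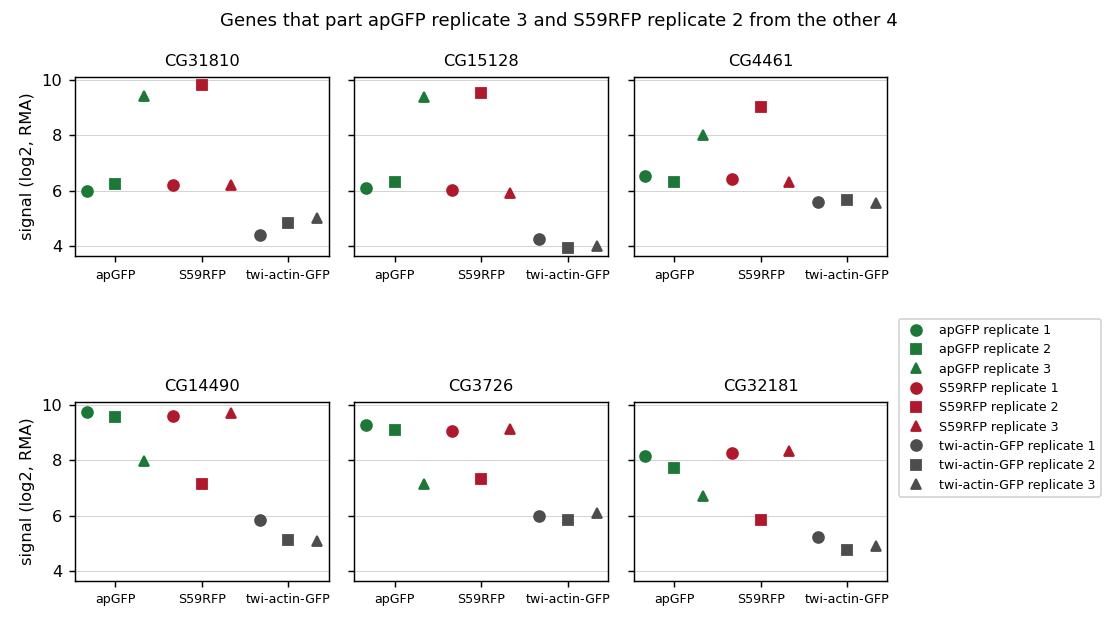
Log2 signal on each of the 9 arrays for the 3 genes highest (top row) and the 3 genes lowest (bottom row) on apGFP replicate 3 and S59RFP replicate 2 relative to the other 4 muscle-reporter arrays. In CG31810 the 2 arrays read 9.43 and 9.82 and the other 4 read 5.99 to 6.25, while in CG14490 they read 7.97 and 7.14 against 9.58 to 9.76.

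What is known of the genes from annotation is limited. RefSeq held 107 of the 108 gene IDs, all as protein-coding genes, and a few carry a synonym. CG4733 is also listed as PP2A-B''/PR72, a name of phosphatase regulatory subunits, and had 10.86, 10.74 and 10.90 in apGFP, 10.79, 10.65 and 10.84 in S59RFP and 9.32, 9.37 and 9.25 in twi-actin-GFP. CG14937, listed as FBXO17, had 7.52, 7.30 and 8.64, then 7.68, 8.22 and 7.71, then 5.87, 5.82 and 6.16. CG10527, listed as FAMeT, had 8.51, 7.96 and 9.41, then 8.43, 9.55 and 8.70, then 7.37, 7.23 and 7.44. The first was steady over the muscle-reporter arrays, and the other 2 were highest on apGFP replicate 3 or S59RFP replicate 2.

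CG5676, listed as FUNDC1, had 9.97 to 10.06 on the muscle-reporter arrays and 9.07 to 9.38 on the reference. CG14818, listed as Hero9, had 10.52 to 10.69 against 9.64 to 9.79. Both had small differences with little spread. The ID without a RefSeq entry was that of CG14180, whose name RefSeq gives as a synonym of CG44838. The 2 probe sets may therefore report 1 present-day gene, and 108 counts the names of the array's annotation. They differed in behaviour, since CG14180 lay higher in apGFP than in S59RFP on every array and CG44838 had overlapping groups.

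The genes lay on all the large chromosome arms. There were 29 on 3L (27.1% of those placed, against 20.5% of CG genes), 25 on 2L (23.4% against 18.1%), 20 on 3R (18.7% against 24.4%), 17 on X (15.9% against 17.3%) and 13 on 2R (12.1% against 19.4%). The small chromosome 4, with 13 CG genes measured, held 3 of them. CG1909 had 7.34, 7.22 and 8.24 in apGFP, 7.58, 8.55 and 7.62 in S59RFP and 6.03, 6.01 and 6.16 in twi-actin-GFP. CG31999 had 10.63 to 11.20 on the muscle-reporter arrays against 9.37 to 9.65, and CG1674 had 8.72 to 9.27 against 7.90 to 8.01. These shares are descriptions of a chosen set, and no test was made of them.

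Several of the genes were neighbours. In RefSeq's gene order, 10 of the 107 placed genes (9.35%) had another of the 108 as the next protein-coding gene, where 60 of 4404 other CG genes (1.36%) had one of the 108 beside them. They formed 5 pairs, namely CG12177 with CG11158 on X, CG13833 with CG13838 on 3R, CG4511 with CG4570 on 3R, CG32182 with CG32181 on 3L, and CG5177 with CG5181 on 2L. The spans of CG5177 and CG5181 overlap, and whether the probes of one read transcripts of the other was not tested. Neighbours did not always share a pattern over arrays.

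CG32182 resembled CG32181. It had 7.97, 7.67 and 7.50 in apGFP, 8.43, 6.92 and 8.31 in S59RFP and 5.86, 5.08 and 5.25 in twi-actin-GFP, lowest of the 6 on the same 2 arrays. CG4570 differed from CG4511, with 6.10, 6.17 and 7.46, then 6.02, 6.62 and 6.16, then 4.91, 5.08 and 5.41, highest on the arrays on which CG4511 was level. CG13838 had 6.76, 7.12 and 7.80, then 6.88, 7.76 and 7.05, then 5.94, 4.84 and 5.09, and was likewise highest on the 2 departing arrays, whereas its neighbour CG13833 was lowest on one of them. In CG12177 the signals were 8.53 to 8.91 against 7.88 to 7.98, and in CG11158 they were 9.73 to 10.37 against 8.53 to 9.03. CG5181 had 9.17 or more against 8.16 to 8.27.

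Named genes next to the CG genes met the same margin in places. Of 94 measured next genes with other symbols, 10 met it, or 10.6%, against the 3.44% of all genes with other symbols. This is a description of a chosen set, and it was not tested. The other side of CG13833 is lmd, the zinc-finger factor of fusion-competent myoblasts, which had 12.40, 12.28 and 12.17 in apGFP, 12.40, 11.98 and 12.39 in S59RFP and 9.74, 8.05 and 8.21 in twi-actin-GFP. CG13833 shared its high first reference array and its low S59RFP replicate 2. With CG13838 this makes a run of 3 adjacent genes past the margin.

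CG13010 lies beside singles bar (sing), a membrane protein gene needed for myoblast fusion. sing had 11.01, 10.85 and 10.59 in apGFP, 10.81, 10.41 and 10.89 in S59RFP and 8.16, 7.33 and 7.44 in twi-actin-GFP. CG13010 had 6.51, 6.21 and 6.53, then 6.51, 6.17 and 6.49, then 5.52, 5.55 and 5.42. Both were higher in the muscle groups without overlap, as the margin they met requires. The high first reference array of sing was not seen in CG13010. The other 8 neighbours past the margin were Hsc70-1 and ssp2 beside CG13738, Sh beside CG12672, Traf4 beside CG17612, Treh beside CG10527, ebd2 beside CG32436, ebd1 beside CG3386 and Cul2 beside CG2225.

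One stretch of 3L, picked after its values were seen, held 6 of the genes among 33 protein-coding genes. It runs from CG4461 to CG32037 and includes CG4080, CG4022, CG3552 and CG44838. Besides the 6, 20 genes of the stretch were measured, and 0 of them met the margin, with margins of -2.99 to 0.293. The highest of these margins was that of phol, beside CG3552, which was called higher in both comparisons, by 0.46 (adjusted p = 0.0236 in limma) and 0.49 (adjusted p = 0.0174). CG4022 had 8.58, 8.59 and 9.16 in apGFP, 8.50, 9.54 and 8.55 in S59RFP and 7.69, 7.59 and 7.84 in twi-actin-GFP, and CG3552 had 6.91 to 7.55 against 6.05 to 6.34.

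Among the genes in between, eIF4E1, a cap-binding translation factor, was level, at 12.13 to 12.22 on the muscle-reporter arrays and 12.12 to 12.16 on the reference. aay, the astray phosphatase gene, was the single one lower on every muscle-reporter array by 0.5 or more, with 7.16 to 7.77 against 9.55 to 10.16. The small heat shock gene Hsp27 had 12.24, 12.77 and 13.20, then 12.94, 13.34 and 12.97, then 12.54, 12.73 and 13.05, so that its groups overlapped. Within the stretch, then, adjacent genes differed in the size and the direction of the difference.

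**Figure D5:**
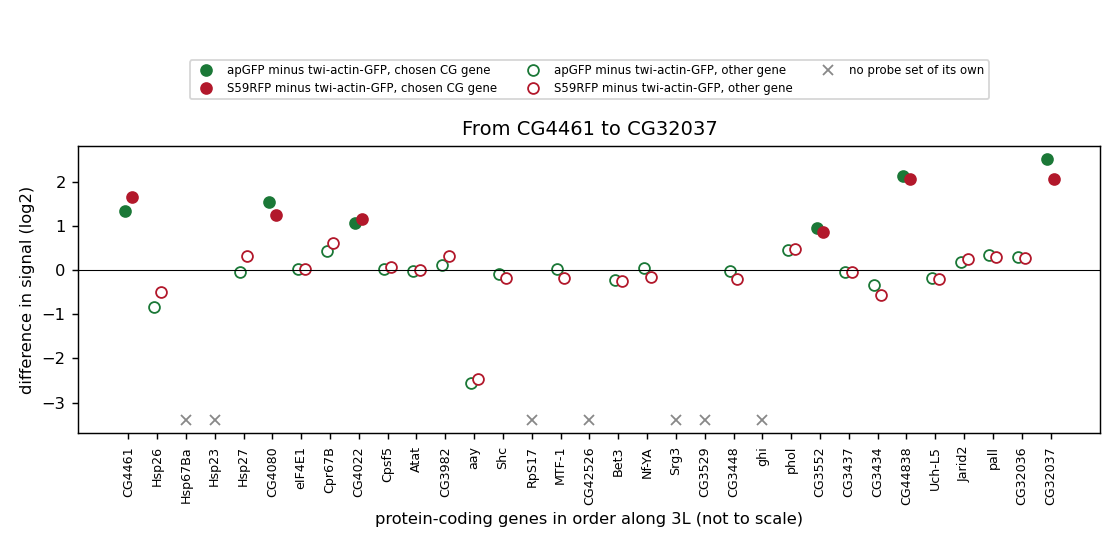
Genes of the stretch of 3L from CG4461 to CG32037 in RefSeq order (horizontal axis, rank and not distance) with the difference in log2 signal from twi-actin-GFP for apGFP and S59RFP (vertical axis), filled for the chosen CG genes, open for other genes and crossed where a gene had no probe set of its own. The 6 CG genes past the margin, which were chosen by this same difference, have the largest positive differences. The other genes lie on both sides of 0, and aay lies lowest.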

How the data were processed

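Per the labels' protocols, total RNA of sorted cells was labelled without amplification and hybridized to Affymetrix Drosophila Genome 2.0 arrays. The authors deposited log2 signals per probe set, made with RMA in Partek per the submitters' processing notes, with versions and settings not given in the sources used here. RMA compresses differences of dim probe sets and gives no detection call. No further normalization or filter was applied.

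Of 16377 probe sets, the platform annotation paired 11899 with 1 gene, 353 with several and left 4125 unlisted. RefSeq's table (Release 6 assembly) held the gene ID of 11806 of the first and served for names, chromosomes and gene order alone, since the array files name no build.

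One limma 3.58.1 fit (R 4.3.3) of 3 group means over 9 arrays gave differences, standard errors and 95% intervals, with Benjamini-Hochberg adjustment over 16377 probe sets and a call at an adjusted p below 0.05. The number of arrays limits the precision.

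Genes named in the text were those with the 15 widest margins, the 5 highest mean signals, the 5 largest differences each way between the muscle groups, the 3 on each side of the margin, the 3 highest and 3 lowest on the departing arrays, and neighbours. Genes with a RefSeq synonym, genes on chromosome 4 and other single genes were named after their values were seen. The members and lists were chosen with earlier results of these data known. Alternatives covered the margin, normalization, probe-set choice, array weights, a variance trend, a block, a filter on low values and single arrays left out.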

Additional observations from a re-analysis of the deposited data

How the results depend on the processing

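The number of CG genes past the margin, 108, became 208 at a margin of 0.25, 33 at a margin of 1, 172 after a further quantile normalization and 251 without both departing arrays, and ran from 108 to 167 when 1 array was left out, the highest without S59RFP replicate 2. With arrays centred on their medians it was 96, of which 95 were among the 108. Between the muscle groups 0 probe sets were called under all alternatives run, with 131 to 1371 at an unadjusted p below 0.05 and 2 to 8 of the genes. Probe sets higher in apGFP than in twi-actin-GFP numbered 1601, with array weights 3299, without both departing arrays 3272, and with 1 array left out 965 (without twi-actin-GFP replicate 3) to 2934 (without S59RFP replicate 2). For S59RFP, 1826 became 5830 with array weights, 3383 without both, and 901 (without twi-actin-GFP replicate 3) to 2609 with 1 array left out, and 2120 lower became 3398 with array weights. The balance turned to more higher than lower after quantile normalization (2062 and 1846 for apGFP, 2265 and 1876 for S59RFP), with array weights (2729 lower for apGFP), without both departing arrays (2696 and 2772 lower) and without S59RFP replicate 2 (2528 lower for apGFP, 2609 higher and 2359 lower for S59RFP), and for apGFP in a fit of its 2 groups alone (2356 and 2265). Of the muscle and myoblast list genes, with 0 lower, 2 and 3 were lower with array weights for apGFP and S59RFP, 2 and 2 without both departing arrays, and 0 and 2 without S59RFP replicate 2. For S59RFP, 1 was also lower with a variance trend, with arrays centred on their medians and with the filter on low values. The same held without apGFP replicate 3 and without twi-actin-GFP replicate 1. Of the 10 genes with the largest differences between the muscle groups, the ones recomputed under each alternative, 4 changed sign. CG31710 became 0.126 without S59RFP replicate 2 and -0.647 without S59RFP replicate 3. CG42717 became 0.214 without apGFP replicate 1 and 0.218 without S59RFP replicate 2, and -1.011 without apGFP replicate 3. CG4461 became 0.227 with array weights, 0.025 without apGFP replicate 2, 0.592 without S59RFP replicate 2, -0.836 without apGFP replicate 3 and 0.054 without both departing arrays. CG4570 became -0.133 without apGFP replicate 3 and 0.546 without apGFP replicate 1. The cause was not tested. Same-numbered apGFP and S59RFP arrays correlated in their deviations at 0.491, -0.563 and -0.618. Over all pairs of an apGFP and an S59RFP array, r was negative where just 1 of the 2 was a departing array and positive otherwise. The check therefore cannot tell whether the numbers pair the samples. With the replicate block, 0 genes were called between the muscle groups, and 1329 and 1403 probe sets were higher than in twi-actin-GFP for apGFP and S59RFP. Alternatives on promoter motifs and protein ends were not run, since no sequences were used here.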
